A study of Homo sapiens with 6 samples.

Results

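The peaks described here are accessible regions that passed a strict limit on replicate agreement in Nthy-ORI cells given T3 for 24 h or vehicle. Nthy-ORI is an immortalised human line made from normal thyroid follicular epithelium, and a single such line stands for the tissue. ATAC-seq recorded where chromatin was open: the transposase Tn5 inserts adapters into accessible DNA. All cells first spent 24 h without hormone, in medium free of phenol red whose serum had been stripped with charcoal. The treated cells were then given 10 nM of triiodothyronine (T3), the active form of thyroid hormone, for 24 h, or the NaOH vehicle in samples labelled 6 h. Each group had 2 samples, and nuclei of 50000 cells entered each reaction. No vehicle sample at 24 h was analysed here, so hormone and time after the medium change cannot be told apart. The series asks how T3 and its receptor TRβ act on chromatin together with SWI/SNF remodellers.

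A peak entered when its irreproducible discovery rate (IDR), the expected share of irreproducible peaks among those ranked at least as well, was at most 0.01 and it lay on chromosomes 1 to 22 or X. This kept 2894 of 7103 vehicle peaks and 42577 of 60661 peaks at 24 h, so 45471 strict peaks of the 80149 in the 3 deposited lists. A peak counted as shared if an overlap with a peak of the other list took in 50% or more of the shorter of the pair. The other 24 h peaks are called gained and the other vehicle peaks lost. These words describe membership in lists: each group has 1 list, so no test between groups exists, and absence from a list does not show closed chromatin.

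Thyroid hormone receptors are nuclear receptors that sit on DNA with or without hormone, often as heterodimers with RXR. Without T3 they recruit corepressors with HDAC3, and binding of T3 exchanges these for coactivators. SWI/SNF complexes use ATP to slide or evict nucleosomes, which is one way in which DNA becomes open to Tn5. In thyroid follicular cells the factors PAX8, NKX2-1 and FOXE1 drive the genes of hormone synthesis.

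The 5 promoters printed next belong to genes with a gained gene-end peak, which covers the printed DNA in all but TSHR. RALGAPA2, POT1 and DNAJB9 carried the strongest gained peaks at gene ends, and PAX8 and TSHR are thyroid genes with a gained peak. Each line gives the 200 bases before a listed start from RefSeq, build GRCh38.p14, read 5′ to 3′ on the strand of the gene. Capitals mark letters that match, on either strand, the GC box (GGGCGG), the CCAAT box, the core read by ETS factors (CCGGAA), the cyclic AMP element or CRE (TGACGTCA), the E-box (CACGTG) or the hexamer read by T3 receptors (AGGTCA).
RALGAPA2: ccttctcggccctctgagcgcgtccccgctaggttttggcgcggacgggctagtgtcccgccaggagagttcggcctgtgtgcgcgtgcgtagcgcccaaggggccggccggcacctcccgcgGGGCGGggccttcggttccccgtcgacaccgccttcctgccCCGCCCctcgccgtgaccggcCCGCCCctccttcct
POT1: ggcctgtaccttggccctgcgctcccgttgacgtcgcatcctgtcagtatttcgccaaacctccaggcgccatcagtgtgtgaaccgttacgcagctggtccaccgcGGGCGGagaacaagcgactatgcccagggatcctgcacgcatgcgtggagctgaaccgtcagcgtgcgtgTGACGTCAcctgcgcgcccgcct
DNAJB9: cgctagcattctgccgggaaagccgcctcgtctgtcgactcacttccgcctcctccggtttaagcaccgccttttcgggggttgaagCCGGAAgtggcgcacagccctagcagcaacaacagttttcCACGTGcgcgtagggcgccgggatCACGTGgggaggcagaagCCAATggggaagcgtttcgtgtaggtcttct
PAX8: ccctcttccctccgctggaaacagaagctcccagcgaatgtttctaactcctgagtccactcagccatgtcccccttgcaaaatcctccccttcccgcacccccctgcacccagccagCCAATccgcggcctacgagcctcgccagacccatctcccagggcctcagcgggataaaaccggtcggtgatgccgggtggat
TSHR: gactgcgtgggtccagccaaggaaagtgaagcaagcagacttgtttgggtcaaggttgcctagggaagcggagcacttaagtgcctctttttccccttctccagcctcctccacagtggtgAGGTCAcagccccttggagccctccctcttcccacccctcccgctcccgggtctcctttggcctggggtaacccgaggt

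The RALGAPA2 stretch lies at chr20:20712645-20712844 on the minus strand and holds 3 GC boxes in DNA of 75% G and C. The POT1 stretch, at chr7:124929826-124930025 on the minus strand, has a GC box and a CRE, the site of CREB and ATF factors. DNAJB9 is on the plus strand, at chr7:108569674-108569873, and shows 2 E-boxes, a CCAAT box and an ETS core. At PAX8, chr2:113278922-113279121 on the minus strand, the search found a CCAAT box. The TSHR stretch, at chr14:80955421-80955620 on the plus strand, has a T3 receptor hexamer, and the gained TSHR peak ends upstream of it. A match is a run of letters and does not show that a factor binds there.

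Replicates placed their summits closer together in gained than in lost peaks. The median distance between the replicate summits was 39 bp in gained peaks and 151 bp in lost peaks, and it was 30 bp and 34 bp in shared peaks of the 24 h and vehicle lists. Summits lay within 100 bp of each other in 77.1% of gained and 41.3% of lost peaks. Median width was 702 bp for gained, 1464 bp for lost and 961.5 bp for shared 24 h peaks. The highest −log10 IDR the lists allow, 5, was reached by 26.2% of gained and 1.25% of lost peaks. The part of this difference in replicate agreement in the counts below was not tested.

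The strict limit falls within a range of similar peaks. Just inside it, the 24 h peak at chr7:157302493-157302754 had replicate signals of 5.77 and 4.15. Just outside, the peak at chr1:158003117-158003703 had 4.88 and 4.71. In the vehicle list the peak just inside, at chr1:121967383-121968735, had 4.998 and 5.09, and the peak just outside, at chr9:66605307-66607171, had 6.12 and 3.998. A signal is the height the authors gave a peak, with a normalisation that is not stated, and is used only within a list. The summed signal of the peak just outside the vehicle limit, 10.1, equals that of the peak just inside to 3 digits.

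Almost the whole 24 h list had no strict counterpart in vehicle. Gained peaks numbered 41511, or 97.5% of the strict 24 h peaks (95% interval 97.3 to 97.6, exact Clopper-Pearson, counting error only), and covered 32.9 Mb. Shared peaks numbered 1066 in the 24 h list. They corresponded to 1051 vehicle peaks, 36.3% of that list (34.6 to 38.1), and 1843 vehicle peaks, 63.7%, were lost. The lengths of the lists limit the shared part of the 24 h list, since 2894 vehicle peaks can match only a small part of 42577. They set no such limit on the shared part of the vehicle list. Weaker deposited peaks were looked up too, of which the vehicle list is also short of the gained peaks (6811 peaks on these chromosomes in all). Of gained peaks 592 (1.43%) overlapped any deposited vehicle peak, and 283 lost peaks (15.4%) overlapped any deposited 24 h peak.

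Gained peaks lay at gene ends more often than shared and lost peaks, most of which lay far from genes. Of gained peaks, 24.1% (23.7 to 24.5) had their position, the mean of the replicate summits, within 1 kb of a boundary of a protein-coding gene, which is called a gene end here. Another 37.7% lay in gene bodies, 19.96% between 10 and 100 kb from genes, and 10.8% over 100 kb away. The share of the sequence inside coding genes was not measured, so the 37.7% has no background to be read against. Of lost peaks 1.84% (1.28 to 2.57), or 34, were at gene ends and 62.9% lay over 100 kb from a coding gene. Of shared 24 h peaks 59.5% lay over 100 kb away, and 5.16% (3.91 to 6.66) were at gene ends, a larger share than of lost peaks.

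**Figure D1:**
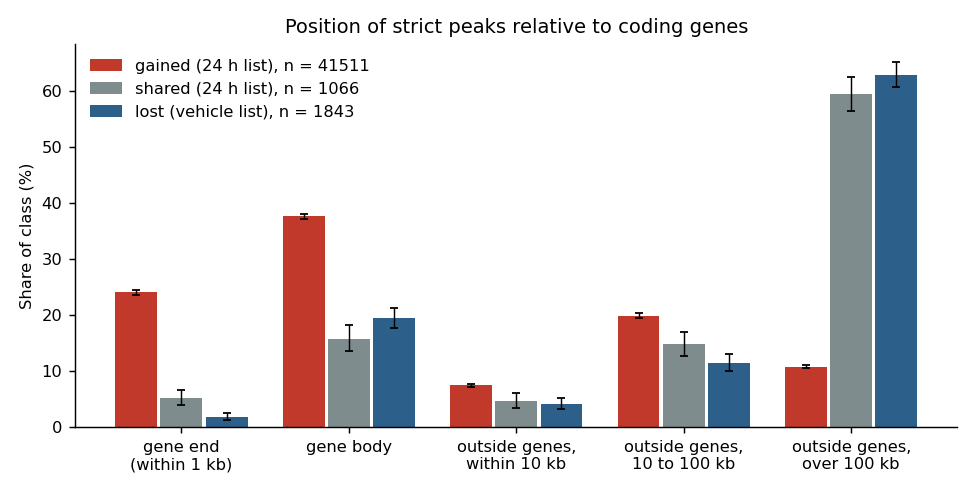
Share of each class of strict peaks, in percent, by position relative to protein-coding genes; bars are gained (41511), shared (1066, 24 h list) and lost (1843) peaks and the lines are exact 95% intervals for counting error. Gained peaks lead at gene ends (24.1%) and in gene bodies (37.7%), and lost peaks lead over 100 kb from genes (62.9%).

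Strength within a list followed these positions in opposite ways. Strict 24 h peaks were at gene ends in 11.8% of the weakest and 40.1% of the strongest of 10 equal classes by signal. For strict vehicle peaks, in 5 such classes, the values were 3.45% and 0.345%. The longest gene-free stretches, described below, held 29.5% of the weakest and 69.9% of the strongest vehicle class. For 24 h peaks they held 2.72% and 1.81%. The part of these stretches in the trends was not tested. Of the strongest vehicle class 75.8% of peaks were shared (72.1 to 79.3), against 17.4% (14.4 to 20.8) of the weakest. The median rank within the deposited vehicle list was the 74.4th percentile for lost and the 88.4th for shared peaks.

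Around gene starts, gained peaks formed a narrow maximum just upstream. RefSeq starts with a strand were listed for 15812 of 19974 coding genes, 22132 starts in all. None of them lay on chromosome 8, so its 1593 gained peaks could not match a start. Of gained peaks 9028 (21.7%) lay within 1 kb of a listed start, at a median of -51 bp, where negative is upstream. Within 100 bp of the start were 47.8% of these, and 66.3% lay upstream. Lost peaks near a listed start numbered 11 (0.597%), with a median of 533 bp into the gene and 2 within 100 bp.

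**Figure D2:**
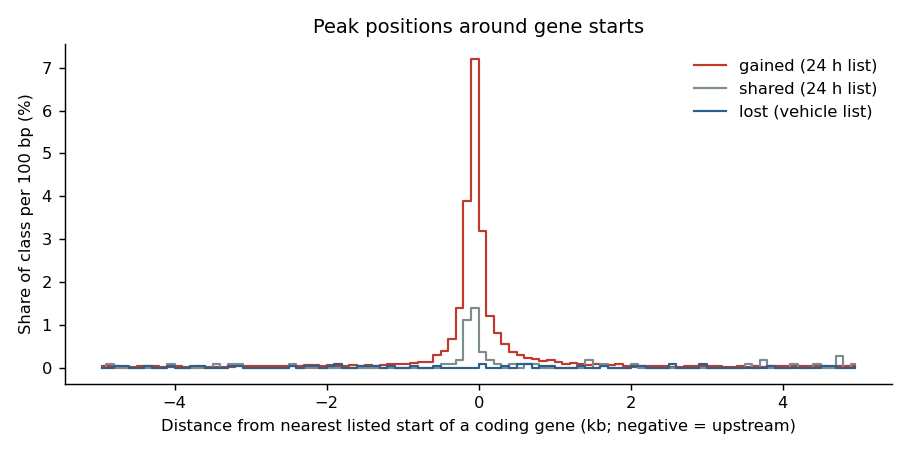
Share of each class of strict peaks per 100 bp, in percent, against the distance in kb of the peak from the nearest listed start of a coding gene, upstream negative. Gained peaks reach 7.19% in the 100 bp before the start, shared 24 h peaks reach 1.41% there, and lost peaks stay near 0.

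The gene ends with gained peaks were mostly 5′ ends. Of the 15812 genes with a listed strand, 8810 (55.7%) had a gained peak at the 5′ boundary and 789 (4.99%) at the 3′ boundary. In 462 genes the peak at the 3′ boundary was over 1 kb from every listed coding start. Lost peaks did not favour the 5′ side, with 12 genes at the 5′ and 17 at the 3′ boundary. Of the 9028 gained peaks at starts, 938 lay within 1 kb of starts of 2 or more genes on opposite strands. Whether such genes point away from each other was not checked. The median rank of the 938 peaks was the 84.5th percentile of signal in the 24 h list, against the 76.6th for peaks at starts on a single strand.

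Counted by gene, 10951 of 19974 coding genes (54.8%) had a gained gene-end peak, and 10935 of these had no strict vehicle peak there. A lost gene-end peak was present at 36 genes (0.18%), of which 23 had no strict 24 h peak at their ends. In the strict vehicle list 92 genes had any gene-end peak.

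Among gained gene-end peaks the strongest belonged to genes of varied function. RALGAPA2, a subunit of the complex that switches off Ral GTPases, had replicate signals of 20.8 and 27.3 at chr20:20712377-20713124. POT1, a shelterin protein that covers single-stranded telomeric DNA, had 21.2 and 25.3 at chr7:124929557-124930141. The peak between DNAJB9, an endoplasmic reticulum chaperone cofactor, and THAP5, at chr7:108569197-108570742, had 23.7 and 22.2. In each of these 3 peaks both replicates were high, and the summits of DNAJB9 lay 252 bp apart against 9 bp at RALGAPA2.

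The next 7 ran from 45.7 to 43.7 in summed signal. They were HEMK2, a protein methyltransferase, at chr21:28884926-28885528 (21.6 and 24.1), and PRPS1, which makes the ribose donor for nucleotide synthesis, at chrX:107628166-107629183 (22.2 and 22.8). The gene end shared by WBP11, a splicing protein, and C12orf60 had 19.8 and 24.996 at chr12:14803044-14803965. BPGM, the enzyme of 2,3-bisphosphoglycerate, had 19.1 and 25.1 at chr7:134646518-134647270. UTP3, a ribosome biogenesis factor, had 22.7 and 21.4 at chr4:70687921-70689013. ENTPD1 and TCTN3 shared the peak at chr10:95693494-95694321 (17.96 and 25.97), and ZNF337 had 20.8 and 22.9 at chr20:25696466-25697113. All 10 reached the highest IDR value, as did 26.2% of all gained peaks. None overlapped any deposited vehicle peak, which also held for 40919 of all 41511 gained peaks. Of the 10, 4 (DNAJB9, PRPS1, WBP11 and ZNF337) were also in the strict 6 h list.

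Away from gene ends, 3 of the 5 strongest gained peaks were very narrow. Those of highest signal lay 506686 bp from TPTE, at chr21:10014857-10015014 (47.5 and 50.4), and inside KIAA0825, at chr5:94569381-94569537 (45.3 and 45.4). The others were inside PDE3A, a cyclic nucleotide phosphodiesterase, at chr12:20551426-20551569 (28.3 and 33.98), inside TMPRSS15, the intestinal enteropeptidase, at chr21:18383086-18383527 (27.4 and 32.6), and inside MYOM2, a sarcomere protein, at chr8:2127043-2127846 (24.5 and 34.7). The first 3 were 144 to 158 bp wide, below the 25th percentile of gained peaks (451 bp). Whether reads map uniquely to such places was not tested.

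Lost gene-end peaks were weaker within their own list and wide. TGM6, a transglutaminase, led with 6.73 and 6.78 at chr20:2432002-2434028. TDRD1, a germ cell protein of the piRNA pathway, had 7.14 and 6.31 at chr10:114233087-114235419, and ZNF736 6.02 and 7.27 at chr7:64357148-64359635. The 10 strongest ranged from 13.5 to 11.8 in summed signal and from 1253 to 2488 bp in width. Others of the 10 were BLVRA (4.31 and 8.05), NIPBL, the cohesin loader (7.498 and 4.49), PYM1 (7.14 and 4.65) and FETUB (5.36 and 6.70). In BLVRA and NIPBL the replicate summits were 1280 and 1100 bp apart.

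PCDHB4 (5.71 and 6.90), PCDHA8 (4.89 and 7.27) and FAM90A18 (5.42 and 7.17) complete these 10 and belong to families of related copies, so their assignment may be uncertain. Whether reads map uniquely there was not tested. TDRD1, ZNF736, BLVRA, NIPBL and PYM1 also had a strict 24 h peak at a gene end. The lost peaks of TDRD1, ZNF736, TGM6, FETUB, BLVRA and PYM1 lay over 1 kb from every listed start. None of the 10 lay within 100 bp of a gene end.

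Away from genes, the strongest lost peaks were sharper. The first lay 67789 bp from RAMP3 at chr7:45251994-45252330 (27.03 and 26.2), and the next 144245 bp from CSNK1G3 at chr5:123761005-123761328 (17.9 and 20.3). Neither overlapped any deposited peak at 24 h or 6 h. Of all 1843 lost peaks, 1560 overlapped no deposited 24 h peak and 580 overlapped a deposited 6 h peak. The next 3 of the strongest lay over 1000 kb from a coding gene, on chromosomes 17 and 10, and all 3 were in the strict 6 h list.

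Shared peaks at gene ends marked 60 genes. SPATC1L had the highest signal in the 24 h list (28.8 and 32.7, chr21:46184411-46185134), followed by a predicted gene at the tip of chromosome 3 (21.9 and 28.7), OTUD6B, a deubiquitinase (17.9 and 25.9), SERBP1, an mRNA binding protein (19.3 and 20.7), and the gene ends of KLHL28 and TOGARAM1 (16.9 and 21.8). These 5 were also in the strict 6 h list. Further shared genes were EIF2S1, the alpha subunit of translation initiation factor 2, with ATP6V1D (13.3 and 17.6), IFNAR1, a type I interferon receptor chain (14.3 and 18.7), and the glycyl-tRNA synthetase gene GARS1 (13.0 and 14.8). In the vehicle list the peak of KLHL28 and TOGARAM1 had 6.43 and 8.20, and IMMT, a mitochondrial cristae organiser, had 6.99 and 6.34.

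Away from gene ends the shared peaks held the highest signals of both lists. The top 24 h peak, at chr17:22521233-22521585, had 55.8 and 57.5, and the top vehicle peak, at chr17:25920032-25920407, had 49.8 and 56.0. Both lay in the longest stretch of chromosome 17 without a coding gene. Others were 75280 bp from FSHR at chr2:49229633-49229830 (47.7 and 49.9), 216215 bp from MYO16 at chr13:109424127-109424342 (49.5 and 50.2) and inside AKAP6 at chr14:32484811-32485118 (42.8 and 39.99).

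The longest stretch of a chromosome without a coding gene often includes the centromere, where repeats make unique mapping hard. These stretches make up 6.55% of the sequence spanned. They held 0.646% of gained peaks (0.571 to 0.727), 51.4% of shared 24 h peaks and 44.6% of lost peaks (42.3 to 46.9). Without them 41243 gained and 1021 lost peaks were left, 24.2% and 3.33% of them at gene ends. Leaving them out does not remove every dense cluster. On chromosome 2 the stretch held no lost peak, and the 132 lost peaks between 90 and 95 Mb stayed among the 1021. On chromosome 1, 323 of 449 strict vehicle peaks fell between 120 and 125 Mb, on chromosome 13, 163 of 214 between 15 and 20 Mb, and on chromosome 2, 137 of 243 between 90 and 95 Mb. Over all chromosomes, the 5 Mb window richest in vehicle peaks held 47.0% of lost, 48.9% of shared vehicle and 2.71% of gained peaks; the windows were chosen by the vehicle peaks themselves. Copy number of the line and mappability were not tested.

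Gained peaks were spread unevenly over the chromosomes. Chromosome 19 had 21.7 per Mb, chromosome 17 had 21.2 and chromosome 20 had 21.1, and chromosomes X and 4 were lowest with 6.71 and 8.95. Lost peaks were densest on chromosome 20, with 1.77 per Mb, and on chromosomes 7 and 10, with 1.25 and 1.23.

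**Figure D3:**
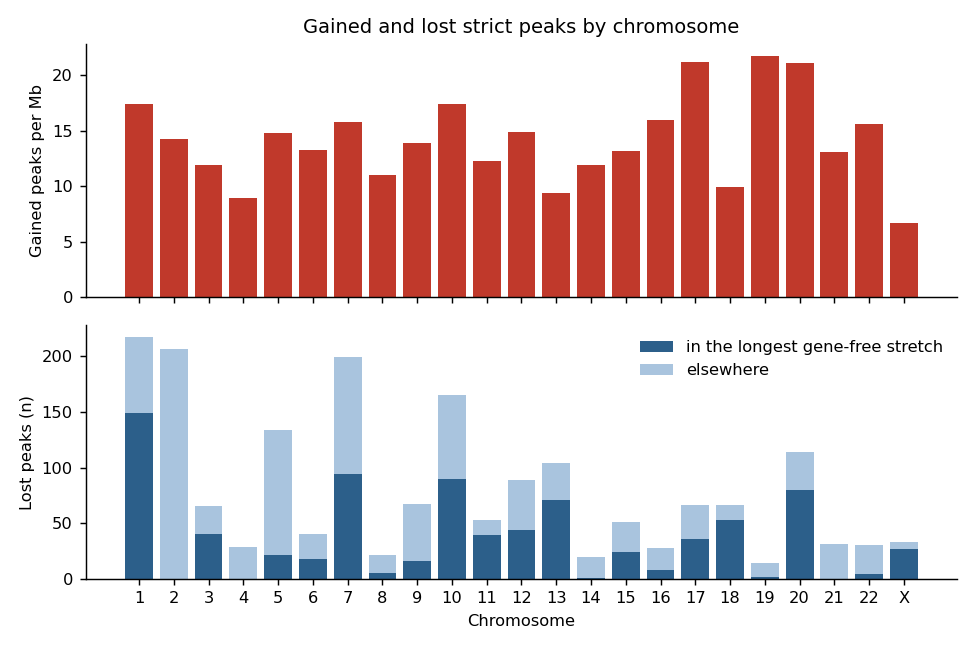
Gained strict peaks per Mb (top) and number of lost strict peaks (bottom) for chromosomes 1 to 22 and X, with lost peaks in the longest gene-free stretch of each chromosome in the darker colour. Gained density is highest on chromosome 19 (21.7 per Mb), and 822 of 1843 lost peaks lie in the gene-free stretches.

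Some loci collected many gained peaks. Assigned to the nearest coding gene end within 100 kb, 22 gained peaks went to PRKCH, a protein kinase C, 21 to EGFR, the receptor of epidermal growth factor, 21 to ZMIZ1, a transcriptional coactivator, 19 to CRIM1, which binds bone morphogenetic proteins, and 19 to SMAD3, a transducer of TGF-β. None of these genes had a lost or shared peak assigned. Over all 19974 coding genes only 614 lost peaks were assigned, and shared 24 h peaks numbered 1066 in all. Most coding genes therefore had none of either kind. The median number of gained peaks was 2 over the 14611 genes with any gained peak assigned. Long genes offer more room, so the density inside the gene was compared too. It was 10.8 per 100 kb in SMAD3, 8.19 in CRIM1, 6.46 in ZMIZ1, 6.23 in EGFR and 4.40 in PRKCH. The median was 1.37 and the 90th percentile 3.88 over 6258 genes of at least 50 kb. The named genes were chosen by counts that include peaks inside them, so the density is not independent of that choice. Summed signals at EGFR ran from 9.65 to 39.6 with a median of 15.99, and those at ZMIZ1 from 9.57 to 19.1. Of the peaks of these loci, 2 at EGFR and none elsewhere were in the strict 6 h list.

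Genes of 21 lists of pathways and cell types, 484 distinct genes, were then looked up, each count read against the 54.8% of all coding genes. A gained gene-end peak was present at 314, a shared peak at 1 (DNAJC3) and a lost peak at none. Over all coding genes a shared gene-end peak was present at 60 (0.3%) and a lost one at 36 (0.18%). Such low counts are therefore near the background and are no trait of the lists.

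Of the thyroid lineage list 9 of 18 genes had a gained gene-end peak, and 4 had it within 500 bp. Within 500 bp, 9553 of 19974 coding genes had a gained peak and no vehicle one. TSHR, the thyrotropin receptor, had 10.1 and 14.1 at chr14:80954767-80955294, with replicate summits 1 bp apart. SLC26A4, the iodide and chloride exchanger pendrin, had 9.86 and 10.1, HHEX, a homeobox factor of thyroid development, 12.1 and 7.19, and GLIS3, a zinc finger factor, 8.03 and 9.68. The lineage factors PAX8 (5.59 and 7.13), NKX2-1 (6.21 and 4.86) and FOXE1 (9.63 and 6.26) had weaker peaks, PAX8 also in the strict 6 h list. TG, the hormone precursor thyroglobulin, SLC5A5, the iodide importer, and DUOX2, a source of hydrogen peroxide for hormone synthesis, had none at their ends. Of 10 defining thyroid markers 6 had a peak and 4 had none. Inside TG 8 gained peaks were found, while SLC5A5 had its nearest 10.6 kb from an end.

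Among T3 receptors and cofactors 12 of 19 had a gained gene-end peak. TBL1X, a part of the corepressor complex, had 12.9 and 15.6, the coactivator NCOA3 13.1 and 13.5, the corepressor deacetylase HDAC3 9.26 and 11.9, and the arginine methyltransferase CARM1 7.15 and 9.98. RXRB, a partner of T3 receptors, had 4.22 and 5.99, while THRA, THRB, RXRA and RXRG had none. The peak nearest to an end of THRB (5.10 and 5.59, chr3:24493975-24495926) was placed 1002 bp from the end and 144 bp from a listed start, but its replicate summits lay 994 bp apart, so it sits at the edge of the window. THRB held 11 gained peaks inside. For THRA the nearest was 5470 bp from an end, and for RXRA 2947 bp.

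Transport and deiodination genes had 3 of 10. SLC3A2, the heavy chain of amino acid carriers that move T3, had 14.7 and 14.1, and the T3 carrier SLC16A10 9.06 and 6.97. No deiodinase gene (DIO1, DIO2, DIO3) had a gene-end peak. DIO1, a classical T3 target that activates thyroxine, had its nearest gained peak 4405 bp from an end.

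Of genes known to respond to T3 in various tissues, 13 of 27 had a gained gene-end peak, near the background. TXNIP, a thioredoxin inhibitor, had 12.8 and 17.1, the hypoxia factor HIF1A 11.6 and 14.5, and PDK4, which restrains pyruvate oxidation, 7.75 and 12.3. KLF9, a direct T3 target in many cells, had 9.66 and 8.92 at chr9:70412813-70414509, with summits 655 bp apart. HR, another direct target, had none within 1 kb, and THRSP, BCL3 and CPT1A had none either.

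In the SWI/SNF list 22 of 31 genes had a gained gene-end peak. ACTL6A, an actin-like subunit, had 14.3 and 19.1, DPF3 11.8 and 15.1, SS18L1 13.7 and 12.5, and the core subunit SMARCC1 11.1 and 13.0. Of the ATPases, SMARCA4 (BRG1) had 8.08 and 9.71 at chr19:10960291-10961179 and SMARCA2 (BRM) 7.36 and 11.0 at chr9:2014736-2015415. ARID1A, which defines the BAF form, had 5.17 and 6.52, and its partner paralogue ARID1B had none. Other remodellers had 22 of 26, led by CHD6 (20.7 and 20.6), CHD8 (17.7 and 22.2), RBBP4 (18.4 and 14.0) and the ISWI ATPase SMARCA5 (13.4 and 15.6). CHD3, CHD4, CHD5 and MTA1 had none.

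Signalling genes followed. AP-1 and immediate early genes had 16 of 24, led by JUN (12.1 and 12.9, summits 1029 bp apart), JUND (7.72 and 14.0), and the feedback inhibitors of ERK signalling DUSP6 (9.64 and 11.6) and SPRY2 (8.997 and 11.2). FOSB, JUNB and ATF3 had none. YAP and TEAD genes had 15 of 21, among them the target ANKRD1 (15.1 and 19.9) and the Hippo members MOB1A (16.6 and 17.0), NF2 (15.6 and 16.7) and LATS2 (9.87 and 14.9). EGFR and RAS signalling had 23 of 28, among them RALGAPA2, RALGAPA1 (17.6 and 21.95) and RALGAPB (12.9 and 17.1). EGFR itself had 9.66 and 7.11 at chr7:55018524-55020422.

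The mitochondrial list had the highest share of the 21. All 26 mitochondrial genes had a gained gene-end peak (exact 95% interval 86.8 to 100), with ATP5F1B, an ATP synthase subunit, at 20.02 and 23.4, cytochrome c gene CYCS at 18.8 and 23.2, the mitochondrial transcription factor TFB2M at 17.9 and 21.1 and GABPA, an ETS factor of nuclear-encoded mitochondrial genes, at 20.2 and 18.6. Telomere and DNA repair genes had 29 of 30, with PALB2 at 17.9 and 17.5, TERF1 at 15.6 and 18.0 and BLM at 14.1 and 18.4 after POT1. TERT, the telomerase catalytic subunit, was the exception. With replicate summits within 100 bp, 17 mitochondrial and 18 telomere and DNA repair genes had such a peak. Under that limit 7977 of 19974 coding genes had a gained gene-end peak and no vehicle one. The cell cycle list had 33 of 39, led by CDK1 (16.3 and 23.3), AURKA (16.8 and 21.6), CCNB1 (15.2 and 21.0) and MCM3 (16.8 and 18.7). CCND1, CDKN1A, CDK6, CCNE2, CDT1 and ORC1 had none.

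Unfolded protein and heat shock genes had 23 of 27. The peak shared by HSPD1 and HSPE1, the mitochondrial chaperonins, had 18.5 and 19.3 with summits 1009 bp apart, and HSP90B1 had 18.9 and 18.3. DNAJC3, an inhibitor of the kinase PERK, had a shared peak (15.4 and 18.8). Glycolysis had 12 of 22, at the background, with PGK1 (11.7 and 21.4), LDHB (14.7 and 14.3), PGAM1 (11.0 and 13.0) and PKLR (10.7 and 13.2). Housekeeping genes had 23 of 25, led by EMC7 (15.4 and 20.2), PGK1, VPS29 (14.99 and 16.2) and RPLP0 (14.1 and 17.1). Genes shared between lists, such as PGK1, count in each.

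The lists for cell states were less even. Mesenchymal genes had 17 of 22, with SNAI2 (9.87 and 15.6), VIM (11.1 and 11.5), ACTA2 (8.71 and 10.7) and ZEB1 (8.42 and 10.3), but COL1A1 and COL3A1 had none. At an IDR of at most 0.001 the mesenchymal count was 8, and with replicate summits within 100 bp it was 9. Under these limits 9188 and 7977 of 19974 coding genes had a gained gene-end peak and no vehicle one. Epithelial genes had 7 of 22, and KRT8 with KRT18 (11.2 and 9.12), OCLN (7.43 and 8.45) and CLDN1 (7.06 and 8.54) led. CDH1 and EPCAM had no gained gene-end peak. The line is labelled epithelial, and an accessible promoter does not by itself show expression.

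Of the lists used as markers of other cell types, the mesenchymal list above was over the background (77.3%) and the rest were below it. Blood and immune cells had 6 of 22, none of them within 500 bp. At that distance 9553 of 19974 coding genes had a gained peak and no vehicle one. CD8A (15.5 and 16.01) was ahead of SPI1 (6.09 and 6.44), CD14 (6.69 and 5.27) and CD3E (5.30 and 6.01), and PTPRC and HBB had none. Neurons and glia had 3 of 18, namely SYT1 (14.2 and 17.5), MAP2 (11.8 and 15.1) and SNAP25 (8.13 and 9.11). Liver and muscle had 2 of 22, TF (14.2 and 7.43) and APOA1 (7.82 and 9.36), with ALB and MYOD1 at none. Endothelium and C cells had 3 of 13, among them KDR (9.32 and 8.90) and SYP (5.30 and 5.98), while CDH5, PECAM1 and CALCA had none.

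**Figure D4:**
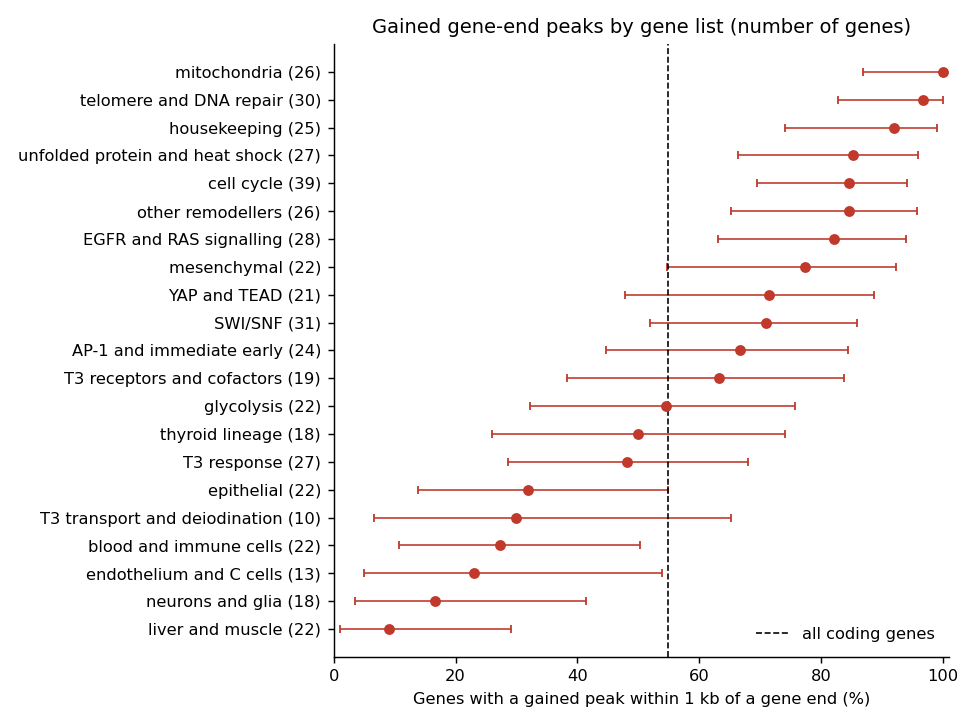
Share of the genes of each list with a gained peak within 1 kb of a gene end, in percent; the number of genes stands beside the name, lines are exact 95% intervals for counting error and the dashed line is the 54.8% of all coding genes. Mitochondrial genes reach 100% and liver and muscle markers 9.09%, with T3 response (48.1%) and thyroid lineage (50%) close to the dashed line.

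Promoters with a gained peak were richer in G, C and CpG. Of 22132 listed starts 11953 (54%) had a gained peak within 1 kb and 10179 had none. Median GC over the 300 bases from 250 before to 50 after the start was 65.7% with a peak and 56.3% without, and the ratio of observed to expected CpG was 0.846 against 0.365. By GC class the share of starts with a gained peak was 17.7% in the lowest of 5 equal classes, 49.6%, 64.4% and 73.5% in the next 3 and 64.9% in the highest. CpG islands mark most promoters of broadly expressed genes.

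Motif letters differed as well, searched on both strands of the same 300 bases. The GC box GGGCGG, read by SP factors, was in 71.4% of starts with a gained peak and 38.5% without. The ETS core CCGGAA was in 30.7% and 9.96%, and the NRF1 site GCGCATGC in 5.58% and 1.58%. CCAAT, read by NF-Y, was in 36.8% and 32.1%, but in 56.4% of the 1196 starts with the strongest gained peaks. TATAAA was less frequent with a peak (5.02% against 14.7%), as were the AP-1 site TGANTCA (4.43% against 8.17%), the TEAD site GGAATG (10.8% against 13.9%) and the T3 receptor hexamer AGGTCA (9.15% against 15.1%). The CRE TGACGTCA was in 3.18% and 1.18%, and the E-box CACGTG in 9.97% and 6.42%.

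GC content moves with several of these letters. Within the middle GC class (59.3 to 65.3% GC) the ETS core was in 36.7% with and 13.2% without a gained peak, and the T3 receptor hexamer in 9.79% and 16.2%. In the highest class the GC box was in 94.6% and 96.7%, so it was no more frequent with a peak there, while CCAAT was in 25.2% and 15.9%. In every other class the GC box was more frequent with a peak. It was in 16.5% against 5.27% in the lowest class, and in 68.0% against 47.2% in the middle class. In the class below the highest it was in 83.3% against 79.2%. The ETS core was more frequent with a gained peak in all 5 classes. The TEAD site was more frequent with a peak in the lowest class (19.6% against 16.9%) and in the highest (6.09% against 4.89%), and less frequent in the other classes. The AP-1 site was at 12.7% and 12.5% in the lowest class and less frequent with a peak in the others. The 300 bases hold only the promoter, and distal sites were not searched.

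**Figure D5:**
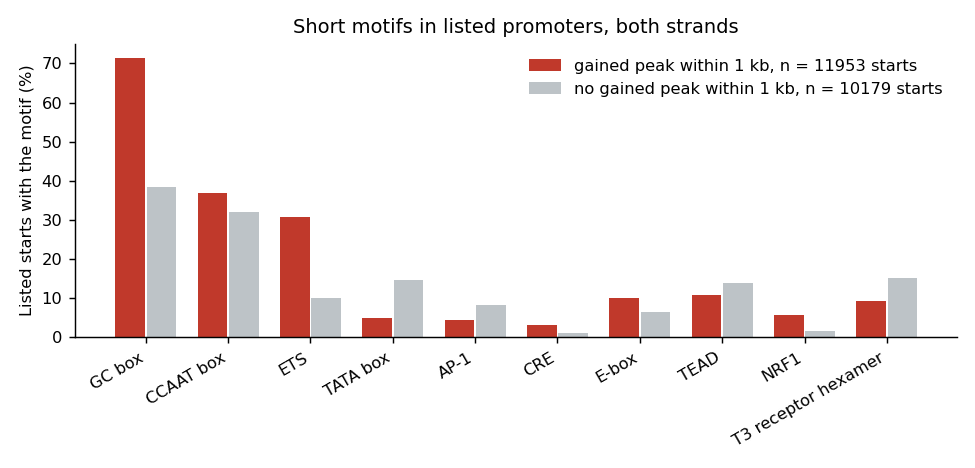
Share of listed starts of coding genes whose 300 bases hold each motif on either strand, in percent, for 11953 starts with a gained peak within 1 kb and 10179 without. GC box (71.4% against 38.5%) and ETS (30.7% against 9.96%) are higher with a peak, TATA box (5.02% against 14.7%) and T3 receptor hexamer (9.15% against 15.1%) lower.

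The 6 h T3 list, which did not enter the comparison, gave another look at the same regions. Its strict part, 3881 peaks, contained 3.10% of gained peaks (2.93 to 3.27), 74.3% of shared 24 h peaks (71.6 to 76.9) and 16.5% of lost peaks (14.9 to 18.3). Gained peaks at gene ends were in it more often than those in gene bodies, with 5.27% (4.84 to 5.73) against 1.98% (1.76 to 2.21). At starts of genes on opposite strands the share was 11.0%, against 4.89% at starts on a single strand. Of lost peaks, 27.7% in the longest gene-free stretches were in the 6 h list, against 7.54% elsewhere.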

How the data were processed

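ATAC-seq peak lists of Nthy-ORI cells were compared, 1 list per group of 2 samples. Per the submitters' processing notes, Bowtie2, MACS2, Trim Galore, DiffBind and CASAVA 1.7 were used on build hg38. How they were set, and any Tn5 shift, duplicate removal or blacklist, is not given in the sources used here. Per the file layout, the 20 columns are those of the IDR method. The deposited score is the scaled IDR, the deposited −log10 of the IDR set the strict limit of 2 (IDR of at most 0.01), and the deposited signal adds up the values of both replicates, which carry no sample number. The authors' signal has no stated normalisation and was not compared between lists. Depth is unknown, since the lists hold no read counts. The labels do not say that the samples of a group were separate cultures.

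Overlaps and positions were computed with scipy 1.17.1, pandas 2.3.3, numpy 2.4.6 and matplotlib 3.10.9 in Python 3.11.15 and tested on simulated data and against bedtools 2.31.1. Genes, starts and promoters came from RefSeq (GRCh38.p14). The gene table has no strand, so a gene end is either boundary of 19974 coding genes within 1 kb; listed starts, which exist for 15812 of them, were added after seeing the data, as was leaving out the longest gene-free stretches. With 1 list per group there is no test and no p-value; intervals are exact Clopper-Pearson 95% and cover counting error only. A gene-end peak counts for every gene within 1 kb. Genes were named by rule: the 10 strongest gained and lost and the 5 strongest shared gene-end peaks, the 5 strongest of each class elsewhere, the 5 genes with most gained peaks, up to 4 per list by signal, 17 preset genes of hormone action, thyroid and remodelling, and the peaks beside the threshold. Some genes that the rule names are not reported here. Further shared genes, and list members without a peak, were chosen after their values were seen. The members and lists were chosen with earlier results of these data known. Alternatives covered the IDR limit, the overlap, the distance of summits, lists of equal length and the window at gene ends.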

Additional observations from a re-analysis of the deposited data

How the results depend on the processing

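Gained peaks numbered 27483 at an IDR of at most 0.001 and 2756 when the 24 h list was shortened to the length of the vehicle list by signal (2755 to 2759 by either replicate column alone), where 1397 genes had a gained gene-end peak and no vehicle one (1347 to 1475). Equal length lowers these counts by construction. Lost peaks numbered 4585 at an IDR of at most 0.05, 676 at 0.001, 900 with replicate summits within 100 bp and 1021 without the longest gene-free stretches. The share of gained peaks at gene ends was 19.6% at an IDR of 0.05, 29.4% at 0.001, 22.3% with close summits, 41.0% at equal length (40.1 to 43.7%), 20.8% within 500 bp, 33.6% within 5 kb and 21.7% by listed starts. The share of lost peaks there was 0.740% at an IDR of 0.001, 2.58% at equal length (2.58 to 2.61%), 0.868% within 500 bp, 5.48% within 5 kb, 0.597% by listed starts and 3.33% without the gene-free stretches. The share of vehicle peaks shared was 29.3% with 50% of both peaks, 32.7% at an IDR of 0.05, 42.6% at 0.001, 46.1% against any deposited 24 h peak, 4.80% at equal length (4.70 to 4.80%) and 33.7% without the gene-free stretches. Under each of these settings the share at gene ends was higher in gained than in lost peaks. Gained peaks also outnumbered lost ones or, at equal length, equalled them nearly. The lengths of the lists fix that order, so the settings do not test it. Equal length also lowered all 21 list counts by more than 1.5 times, and close summits moved 8 of them, the 5 kb window 6, an IDR of 0.001 3, the 500 bp window 2 and an IDR of 0.05 1. Thyroid lineage had 4 genes and blood and immune cells 0 within 500 bp. In that window 9553 of 19974 coding genes had a gained peak and no vehicle one. Mesenchymal genes had 8 of 22 at an IDR of 0.001, where 9188 of 19974 coding genes had a gained gene-end peak and no vehicle one. The cause of the other shifts was not tested. No paired analysis was possible because each group has 1 list whose replicate columns carry no number. The depth behind the lists is unknown and limits every absence named here.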

Other observations

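Long noncoding genes also held gained peaks at their starts. Of 30235 gained peaks over 1 kb from every listed coding start or coding gene end, 1066 (3.53%) lay within 1 kb of the start of a noncoding gene. The strongest were at XIRP2-AS1 (17.5 and 27.02), at LINC02226 (18.5 and 23.2), at the uncharacterised LOC107985500 (19.1 and 22.4) and at LINC01166 (18.6 and 22.7). HMGA2-AS2, antisense to the gene of the chromatin protein HMGA2, had 16.7 and 21.9. ATAC-seq has no strand, so a peak there cannot be assigned to either of 2 overlapping genes.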
